A study of Mus musculus with 26 samples.

Results

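Microglia of mice heterozygous for both Tmem106b and Grn were compared with microglia of mice heterozygous for Grn alone. The libraries were chosen by the genotype label, which gave 8 of the 26 libraries of the series. The 3 Tmem106b HET Grn HET libraries were labelled heterozygous for both genes, 2 male and 1 female, all with the dissection label Entire. The 5 Tmem106b WT Grn HET libraries were labelled wild type for Tmem106b and heterozygous for Grn, 4 female and 1 male, 3 of them labelled Entire and 2 (replicates 2 and 5) Hemi. All 8 therefore share Grn heterozygosity, and the contrast asks what Tmem106b heterozygosity does in that background. The other 18 libraries cover 5 further combinations of Tmem106b and Grn genotypes. Poly(A) RNA of the cell pellets was sequenced and counted per gene. The strain, the design of the alleles, the age of the mice, the way the microglia were isolated and the meaning of Entire and Hemi are not given in the sources used here. Nor do the labels say that each library came from its own mouse, so p-values measure the spread between libraries, part of which may be technical.

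Progranulin, the product of Grn, is a secreted and lysosomal glycoprotein that is cleaved into granulins in the lysosome and that microglia express at a high level. Loss of 1 functional copy of the human gene causes frontotemporal dementia with TDP-43 inclusions, and complete loss causes a lysosomal storage disease, neuronal ceroid lipofuscinosis. TMEM106B is a type II transmembrane glycoprotein of late endosomes and lysosomes that takes part in lysosome acidification, size and transport. Common variants at the human TMEM106B locus modify the risk of dementia in carriers of GRN mutations, which makes lowered TMEM106B a question of interest in Grn-deficient microglia.

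Sequencing depth was similar in both genotypes, with 41.0 to 54.2 M exonic counts per library, against 37.6 to 63.7 M in the whole series. The summed level of 22 homeostatic microglia markers, in TMM-scaled CPM, the count of a gene relative to the library total, was 117936, 100316 and 114797 in the 3 Tmem106b HET Grn HET libraries and 99331, 55599.9, 100550.0, 94502 and 63850.3 in replicates 1 to 5 of Tmem106b WT Grn HET. These markers were thus abundant in every library, and lowest in the 2 Hemi libraries, which also held the most RNA of neurons. For that reason values from Entire libraries only are given beside the main results. The only male library of Tmem106b WT Grn HET, replicate 5, is Hemi, so the 3 Entire libraries of that group are all female. Entire libraries only thus set 2 males and 1 female against females alone, with sex as a covariate in that fit. The same imbalance holds where both Hemi libraries are left out. Xist and Y-linked genes followed the sex labels, but 3 libraries also held some RNA of the other sex. Replicate 3 of Tmem106b HET Grn HET, a male, had Xist at 3.40 CPM, against 51.5 to 155 CPM in females. Replicates 1 and 4 of Tmem106b WT Grn HET, both female and Entire, had 7.91 and 26.1 CPM of Y-linked RNA. Male libraries had 190 and 137 CPM of it in Tmem106b HET Grn HET and 151 CPM in Tmem106b WT Grn HET. The remaining females had 0 to 0.0214 CPM. Where this RNA came from, and its part in genes of low level, was not tested. Each pair of libraries of 1 group differed by far more than counting noise (chi-square per gene 63.5 to 571), so none was a repeat deposit of another.

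Tmem106b itself lies on chromosome 6 of GRCm38 (chr6:13069759-13089269, plus strand). Its promoter window from RefSeq (GRCm38.p6, chr6:13069509-13069808, plus strand) is shown because the heterozygous allele is what the comparison turns on. It was searched on both strands for CACGTG and CATGTG, 2 forms of the E-box bound by the lysosomal transcription factors TFEB and TFE3. Neither was found, while 20.4% of the 32851 promoter windows of the same length held at least 1 of them.
Tmem106b promoter: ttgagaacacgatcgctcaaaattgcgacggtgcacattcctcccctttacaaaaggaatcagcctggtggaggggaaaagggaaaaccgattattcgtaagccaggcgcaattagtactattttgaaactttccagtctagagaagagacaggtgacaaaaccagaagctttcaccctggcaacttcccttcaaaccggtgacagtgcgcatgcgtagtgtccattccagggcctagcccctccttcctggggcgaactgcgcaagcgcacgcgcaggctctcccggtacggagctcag

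Tmem106b was at 59.3, 69.1 and 59.4 CPM in the 3 Tmem106b HET Grn HET libraries, against 80.7, 57.5, 67.7, 61.7 and 84.3 CPM in the 5 Tmem106b WT Grn HET libraries. The groups overlapped: the highest double heterozygous library lay above 3 of the 5 libraries with wild type Tmem106b. The means were 62.6 ± 5.59 CPM (SD, n = 3) and 70.4 ± 11.7 CPM (SD, n = 5), so the double heterozygotes held 89.0% of the level with wild type Tmem106b. With sex and dissection as covariates, edgeR's quasi-likelihood test gave a log2 fold change of -0.30 (SE 0.23, 95% interval -0.77 to 0.17, adjusted p = 0.866), and -0.34 in Entire libraries only. The interval spans 0 and also holds a sizeable loss, so these libraries set the level of Tmem106b only loosely. An exact two-sided permutation test over the libraries gave p = 0.339, where the smallest p possible is 0.0179. The same contrast gave a log2 fold change of -0.30 in Grn WT and -0.40 in Grn KO microglia. In the 4 libraries labelled Tmem106b KO the range was 24.0 to 35.7 CPM, so reads of this gene are counted also where it is labelled deleted. Which exons the alleles lack is not given in the sources used here, and a count over the whole gene may include RNA of a disrupted allele.

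Grn, for which both groups are heterozygous (chr11:102430315-102437048, plus strand), was at 2033, 1554 and 1918 CPM in Tmem106b HET Grn HET libraries and 1626, 824, 1736, 1782 and 1103 CPM in Tmem106b WT Grn HET libraries. The 2 lowest values belong to the 2 Hemi libraries, and the groups overlapped. The means were 1835 ± 249.9 CPM (SD, n = 3) against 1414 ± 427 CPM (SD, n = 5). The log2 fold change was 0.82 (SE 1.25) with an adjusted p of 0.969 by edgeR, and the exact permutation test gave p = 0.196. Fitted on the 8 libraries alone with sex and dissection, the log2 fold change of Grn was -0.18, so its direction is not settled. Among Tmem106b WT libraries the level followed the Grn label: 0 to 16.0 CPM in Grn KO and 2299 to 3897 CPM in Grn WT libraries. In Tmem106b KO Grn WT libraries it ranged from 554 to 4470 CPM, a range that overlaps both Grn HET groups.

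**Figure D1:**
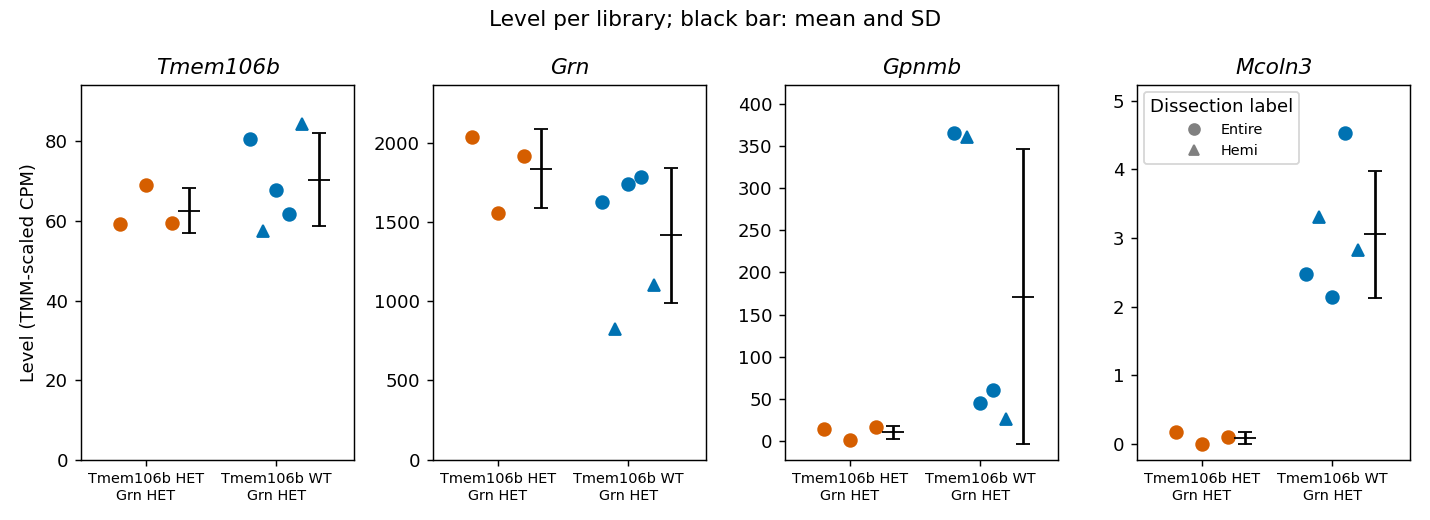
Level per library (TMM-scaled CPM, linear axis) of Tmem106b, Grn, Gpnmb and Mcoln3, with Tmem106b HET Grn HET left of Tmem106b WT Grn HET, circles for Entire and triangles for Hemi, and black bars for the mean and SD. Tmem106b and Grn overlap between the genotypes, while the 3 double heterozygous libraries lie below all 5 others for Gpnmb and Mcoln3.

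The paralogs of Tmem106b were close in both genotypes. Tmem106a was at 98.1, 48.8 and 85.7 CPM in Tmem106b HET Grn HET and 88.3, 49.5, 76.7, 69.4 and 56.3 CPM in Tmem106b WT Grn HET libraries. Tmem106c was at 53.0, 59.8 and 88.5 CPM in Tmem106b HET Grn HET and 55.3, 61.0, 53.0, 67.4 and 71.5 CPM in Tmem106b WT Grn HET libraries. Both overlapped between the genotypes. Of the 8 tested genes nearest to Tmem106b on its chromosome, Ndufa4, Phf14, Gm6578, Thsd7a, Tmem168 and Bmt2 overlapped between the groups. Gpr85, an orphan receptor of neurons, was at 0.882, 0.324 and 0 CPM in Tmem106b HET Grn HET libraries and 1.14, 16.7, 2.06, 1.71 and 6.26 CPM in Tmem106b WT Grn HET libraries. It was lowest in the double heterozygotes and highest in the Hemi libraries. The uncharacterised gene 2610001J05Rik was at 77.4, 83.6 and 86.7 CPM in Tmem106b HET Grn HET libraries and 68.9, 76.6, 66.2, 70.5 and 61.5 CPM in Tmem106b WT Grn HET libraries, a small gap without overlap. Among all genes tested, 6.03% had no overlap in either direction. None of the 8 neighbours passed the adjusted test.

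Across the transcriptome, 0 of 21371 genes (0%) passed an adjusted p under 0.05 by edgeR, and the smallest adjusted p was 0.414. Without adjustment, 1451 genes (6.79%) had a p under 0.05, of which 379 (1.77%) were higher and 1072 (5.02%) lower in Tmem106b HET Grn HET. Limma-voom also passed 0 genes, with 1381 at an unadjusted p under 0.05. DESeq2 passed 515 of 21293 genes (2.42%), 31 higher and 484 lower. Of these, 198 had no count in any of the 3 double heterozygous libraries and 8 none in the 5 others, and 199 reached 5 CPM in the higher group. Leaving out replicate 1 of Tmem106b HET Grn HET gave 8 genes by edgeR, 7 lower (Wdpcp, Wdr78, Rrp12, Pemt, Msl3l2, March6 and Sqle) and the predicted gene Gm43581 higher, while leaving out any other library gave 0. The absence of calls by edgeR does not show that the transcriptomes are alike. Among the 11557 genes at 5 CPM or more, the median half-width of the 95% interval was 0.74 on the log2 scale. That interval is not adjusted for the number of genes, so the difference needed to pass in a typical gene was larger still. Without regard to any model, all 3 Tmem106b HET Grn HET libraries lay above all 5 Tmem106b WT Grn HET libraries for 673 genes (3.15%) and below them for 616 genes (2.88%), in all 1289 genes without overlap (6.03%). The median log2 fold change was -0.06 over all genes tested and 0.0079 over those at 5 CPM or more.

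The 12 genes of smallest p among the higher ones, with at least 0.5 log2 fold and 5 CPM, did not pass (adjusted p = 0.558 each, edgeR) and are given as values. Those with known roles in RNA and protein production are given first. Thoc1, a subunit of the THO complex that couples transcription to mRNA export, was at 67.7, 98.2 and 69.0 CPM in Tmem106b HET Grn HET and 58.0, 53.5, 49.4, 50.3 and 44.9 CPM in Tmem106b WT Grn HET libraries (log2 fold change 0.68, SE 0.14). Bud23, a methyltransferase of ribosomal RNA, was at 62.1, 88.7 and 77.4 CPM in Tmem106b HET Grn HET and 52.6, 51.1, 51.7, 53.8 and 41.1 CPM in Tmem106b WT Grn HET libraries (0.63, SE 0.17). Both genes separated the genotypes in all 8 libraries. Eif2b1, a subunit of the exchange factor for translation initiation factor eIF2, had a log2 fold change of 0.66 (SE 0.18) with overlap. Zfp326, a zinc finger protein that links transcription and splicing, was at 15.4, 29.2 and 19.9 CPM in Tmem106b HET Grn HET and 11.9, 10.3, 9.86, 11.4 and 10.1 CPM in Tmem106b WT Grn HET libraries (1.04, SE 0.26). Among metabolic genes, Coq8b, which is needed for coenzyme Q synthesis, was at 30.8, 63.0 and 43.4 CPM in Tmem106b HET Grn HET and 28.1, 29.8, 23.7, 26.8 and 26.3 CPM in Tmem106b WT Grn HET libraries (0.94, SE 0.22). Replicate 2 of the double heterozygotes was the highest library for Coq8b and Zfp326, and replicate 1 the lowest of the 3, for Coq8b by a narrow margin above the other group. Enoph1, an enzyme of the methionine salvage pathway, had a log2 fold change of 0.53 (SE 0.15). Chromatin and repair genes were Wdr48, a cofactor of the deubiquitinase USP1 (0.71, SE 0.18), Cenpl, a centromere protein (1.16, SE 0.32), and Ep400, a chromatin remodelling ATPase (0.87, SE 0.25). Surf2 (0.77), Simc1 (1.48) and Tmem42 (1.02) complete the 12. Of the 12, 9 did not overlap between the genotypes, the exceptions being Eif2b1, Simc1 and Ep400. Among all genes, 3.15% lay above all Tmem106b WT Grn HET libraries. The 12 were chosen by p from these same libraries, which favours genes without overlap, so the count of 9 is no separate evidence.

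The 12 leading lower genes differed by larger amounts from low levels and also did not pass (adjusted p = 0.486 for Spint2 and Lrrn2 and 0.558 for the other 10, edgeR). Spint2, a Kunitz-type serine protease inhibitor of epithelia, was at 1.94, 0.705 and 0.937 CPM in Tmem106b HET Grn HET and 4.36, 65.8, 4.46, 48.7 and 324 CPM in Tmem106b WT Grn HET libraries (log2 fold change -5.02, SE 1.0). The libraries with wild type Tmem106b span a wide range for it, with replicates 1 and 3 near the double heterozygotes and replicate 5 far above all. Lrrn2, a neuronal leucine-rich repeat protein, was at 3.61, 1.16 and 1.06 CPM in Tmem106b HET Grn HET and 9.85, 92.6, 20.5, 30.6 and 89.6 CPM in Tmem106b WT Grn HET libraries (-3.49, SE 0.70). Several of the others are known from neurons. Rims1, a scaffold of the presynaptic active zone, was at 0.461, 0.133 and 0.0815 CPM in Tmem106b HET Grn HET and 0.656, 9.99, 6.84, 4.0 and 9.79 CPM in Tmem106b WT Grn HET libraries (-4.34, SE 1.04). Grm2, a metabotropic glutamate receptor, was at 0.140, 0.267 and 0.265 CPM in Tmem106b HET Grn HET and 3.75, 34.7, 5.40, 4.31 and 13.6 CPM in Tmem106b WT Grn HET libraries (-3.98, SE 0.98). Both were at or below 1 CPM in each double heterozygous library. Sema3f, a secreted guidance cue, had a log2 fold change of -3.78 (SE 0.94), and Nell1, a secreted protein, one of -4.10 (SE 0.96). Arhgef17 (-3.18), the transcription factor Zfp423 (-2.63), and Zswim5 (-3.65), Phf24 (-3.67), Lrp3 (-3.54) and Phactr2 (-1.13) complete the 12, and Phactr2 alone overlapped between the genotypes. By DESeq2 all of the 24 leading genes but Simc1 and Ep400 passed. In Entire libraries only, all 24 kept their direction and none passed (adjusted p 0.190 to 0.378, edgeR). Among all genes, 2.88% lay below all Tmem106b WT Grn HET libraries. The 24 were chosen by p from these same libraries. Their separation, their DESeq2 calls and their direction in Entire libraries are therefore no separate evidence.

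**Figure D2:**
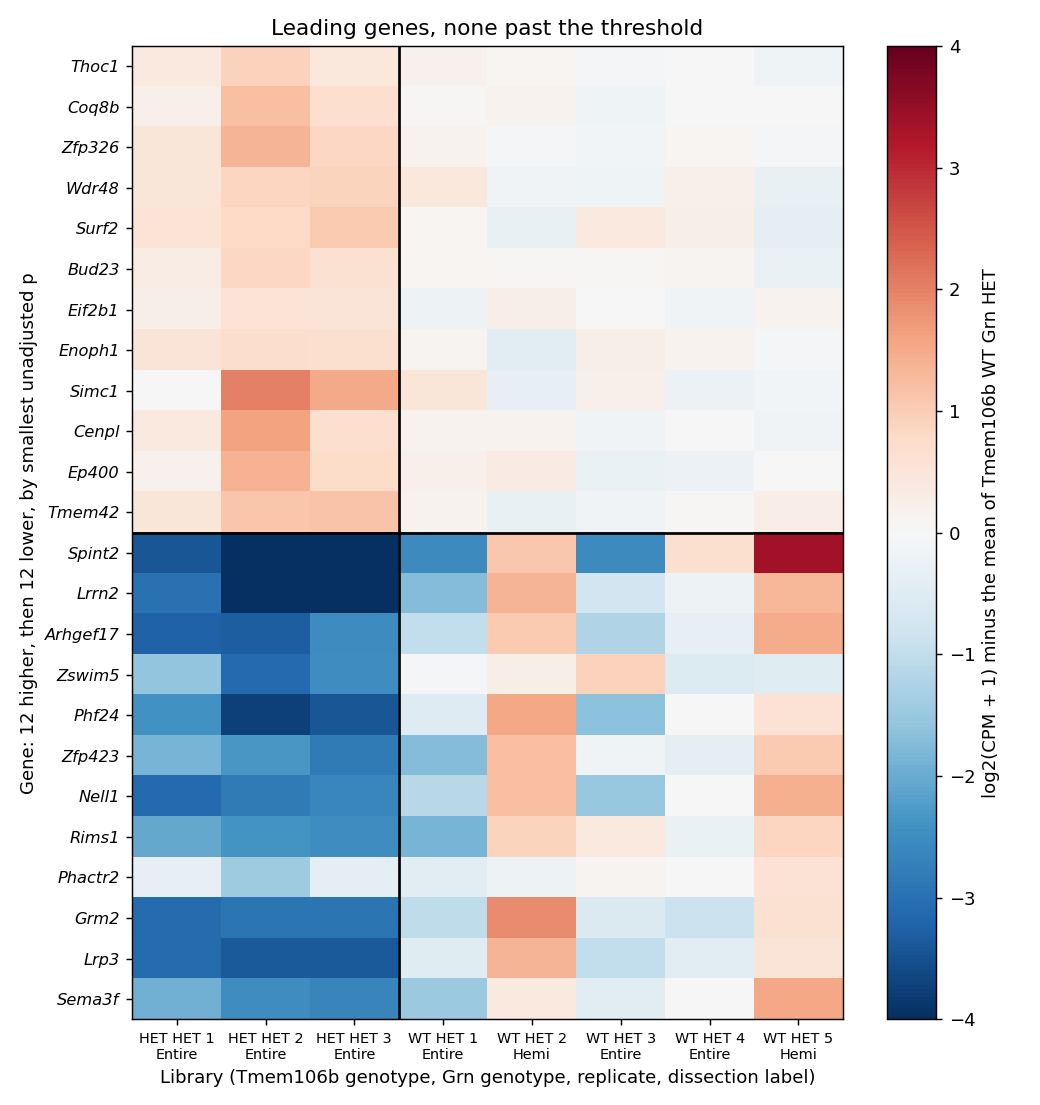
Level of the 12 leading higher and 12 leading lower genes in each of the 8 libraries, as log2(CPM + 1) minus the mean of Tmem106b WT Grn HET, with colours capped at 4 in either direction. Higher genes differ by small amounts in all 3 double heterozygous libraries, while lower genes vary widely among the 5 Tmem106b WT Grn HET libraries, with Spint2 at 324 CPM in replicate 5.

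Among markers of other cell types, the sums of 2 lists were lower in every Tmem106b HET Grn HET library. The summed level of 10 choroid plexus and ependymal markers was 5.85, 53.7 and 33 CPM in Tmem106b HET Grn HET libraries and 78.6, 3693, 375, 4493 and 24769.8 CPM in Tmem106b WT Grn HET libraries, without overlap. Most of it was Ttr, the thyroid hormone carrier made by choroid epithelium, at 0.381, 40.4 and 28.8 CPM in Tmem106b HET Grn HET and 62.5, 3509, 295, 4195 and 22889 CPM in Tmem106b WT Grn HET libraries. All 10 members had a lower level by the fit, 6 at an unadjusted p under 0.05 (5.02% of all genes). Below all Tmem106b WT Grn HET libraries lay 4 of them (against 2.88% of all genes). The 12 medial habenula markers, genes of a cholinergic nucleus next to the third ventricle, summed to 3.69, 12.8 and 7.13 CPM in Tmem106b HET Grn HET and 56.5, 382, 35.0, 37.3 and 80.6 CPM in Tmem106b WT Grn HET libraries, again without overlap. Their cholinergic genes Chat, Slc5a7 and Slc18a3 had no count in any double heterozygous library, as had 758 of all genes tested. Slc5a7 (0 to 0.695 CPM) and Slc18a3 (0 to 0.520 CPM) were also near the floor in Tmem106b WT Grn HET libraries, and both overlapped. In all, 8 of the 12 were lower at an unadjusted p under 0.05, beside the same 5.02% of all genes. Below all Tmem106b WT Grn HET libraries lay 5 of them, beside 2.88% of all genes. The 12 general neuron markers summed to 57.5, 220.0 and 115 CPM in Tmem106b HET Grn HET and 229, 2754, 97.3, 457 and 1146 CPM in Tmem106b WT Grn HET libraries and overlapped, with both Hemi libraries highest. Snap25, a synaptic vesicle fusion protein, was their most abundant member at 21.9, 100.1 and 51.8 CPM in Tmem106b HET Grn HET and 108, 1135, 28.9, 213 and 481 CPM in Tmem106b WT Grn HET libraries. No marker of these lists passed the adjusted test, and their part in the lower genes was not tested. In these bulk libraries, fewer cells of a type and less RNA per cell cannot be told apart.

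T cell, NK cell and monocyte markers overlapped between the genotypes and were nearly absent from 1 library of each. The summed level of 10 T and NK cell markers was 69.6, 1.05 and 70.2 CPM in Tmem106b HET Grn HET and 60.7, 89.2, 0.922, 40.0 and 16.5 CPM in Tmem106b WT Grn HET libraries, so replicate 2 of the double heterozygotes and replicate 3 of the other group held almost none. The 9 monocyte markers followed the same split, at 23.1, 0.210 and 21.6 CPM in Tmem106b HET Grn HET and 28.3, 12.3, 0.708, 25.1 and 17.6 CPM in Tmem106b WT Grn HET libraries. Oligodendrocyte markers summed to 5009.8, 1148 and 3455 CPM in Tmem106b HET Grn HET and 3127, 1129, 4207, 3591 and 2924 CPM in Tmem106b WT Grn HET libraries, with overlap. Astrocyte, oligodendrocyte precursor, endothelial, mural, neutrophil, B cell, erythrocyte and border macrophage sums overlapped too.

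**Figure D3:**
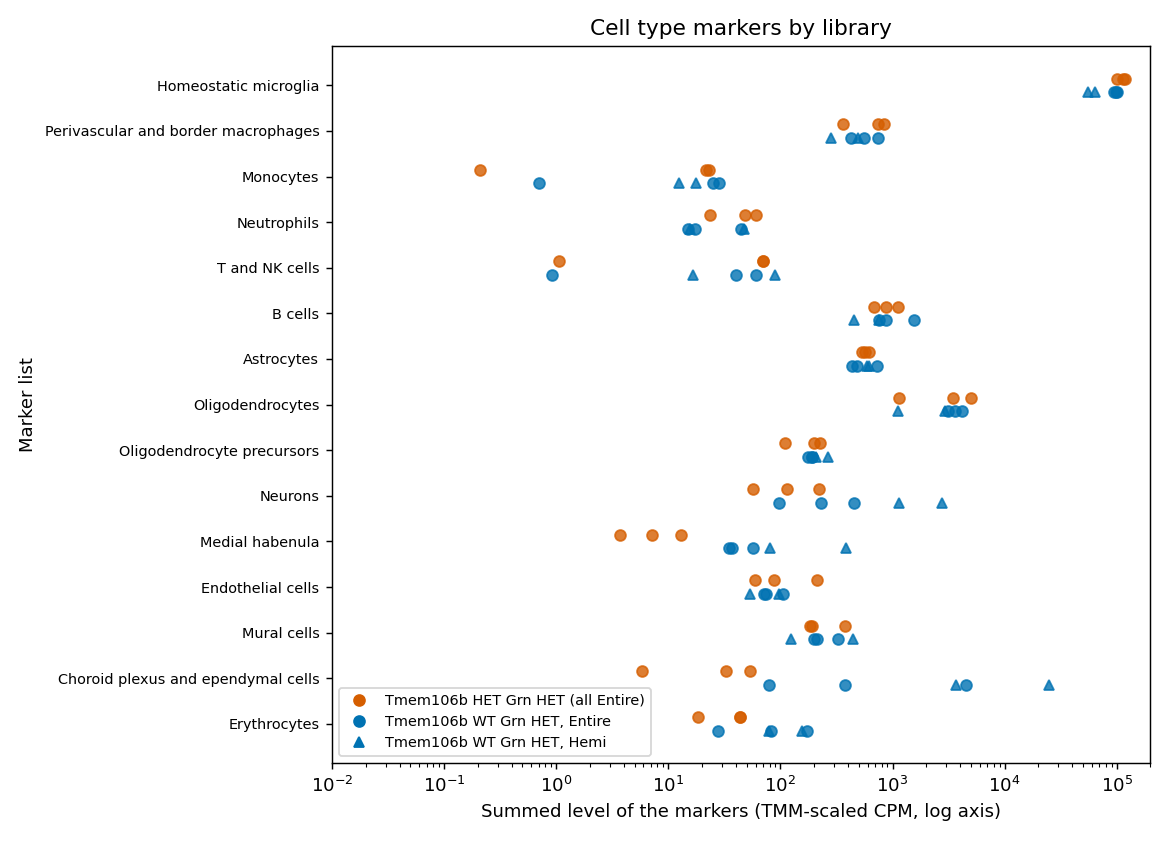
Summed level of each marker list in each library (TMM-scaled CPM, log axis), Tmem106b HET Grn HET above Tmem106b WT Grn HET, triangles for Hemi libraries. The choroid plexus and medial habenula lists separate the genotypes in all 8 libraries, and the 2 Hemi libraries have the lowest microglial sums.

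Lists of genes for the functions of microglia and lysosomes were then compared member by member. None of their members passed the adjusted test, so each list is described by the number of positive log2 fold changes (45.3% over all genes), its median (-0.06 over all genes) and the members without overlap. Members of a list were measured in the same libraries and are not independent of each other. Members given by level alone, with no fold change, were chosen after their values were seen.

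The highest medians belonged to genes that respond within minutes to activation or to handling of cells. Of 22 dissociation and immediate early genes, 16 had a positive log2 fold change, with a median of 0.47 (0.80 in Entire libraries only). Their summed level was 8157, 9019.7 and 5932 CPM in Tmem106b HET Grn HET and 5701, 5331, 4458, 5306 and 3000.4 CPM in Tmem106b WT Grn HET libraries, so all 3 double heterozygous libraries lay above all 5 others. Junb, a subunit of the AP-1 transcription factor, was at 1239.8, 1579.6 and 1030.2 CPM in Tmem106b HET Grn HET and 832, 916, 632, 821 and 443 CPM in Tmem106b WT Grn HET libraries (log2 fold change 0.68, SE 0.34, adjusted p = 0.739, edgeR). Nr4a1, a nuclear receptor induced by stimulation, had a log2 fold change of 1.21 (SE 0.48) and overlapped, as did Ier2 (0.78, SE 0.31) and Jun (0.47, SE 0.23). Fos, the partner of Jun in AP-1, was at 567, 467 and 395 CPM in Tmem106b HET Grn HET and 338, 253, 321, 329 and 177 CPM in Tmem106b WT Grn HET libraries. Including Junb and Fos, 5 of the 22 (22.7%) lay above all Tmem106b WT Grn HET libraries in the double heterozygotes, against 3.15% of all genes.

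Cytokines and NF-kB targets gave a similar picture, with 17 of 23 positive and a median of 0.40 (0.57 in Entire libraries only). The summed level was 5059, 4809 and 2981 CPM in Tmem106b HET Grn HET and 2439, 2078, 2751, 2849 and 1730.5 CPM in Tmem106b WT Grn HET libraries. The 3 double heterozygous libraries were the 3 highest, replicate 3 only just. Il1a, an alarmin cytokine, was at 358, 418 and 246 CPM in Tmem106b HET Grn HET and 171, 113, 180.3, 214 and 119.5 CPM in Tmem106b WT Grn HET libraries (log2 fold change 0.87, SE 0.37, adjusted p = 0.685, edgeR). Ccl3, a chemokine that attracts myeloid cells, was at 503, 498 and 292 CPM in Tmem106b HET Grn HET and 132, 153, 228, 255 and 109 CPM in Tmem106b WT Grn HET libraries (0.87, SE 0.39, adjusted p = 0.702, edgeR). Both genes were higher in each double heterozygous library. Cd83, a marker of activated antigen presenting cells, had a log2 fold change of 0.77 (SE 0.34) and the neutrophil chemokine Cxcl2 one of 1.44 (SE 0.71), both with overlap. Nfkbia, the inhibitor that NF-kB itself induces, was at 745, 569.7 and 395 CPM in Tmem106b HET Grn HET and 269, 249, 317, 333 and 165 CPM in Tmem106b WT Grn HET libraries. Ccl4 and Il1b also lay above all Tmem106b WT Grn HET libraries, which makes 5 of 23 (21.7%, against 3.15% of all genes). The immediate early list holds genes known to be induced when tissue is dissociated, and the dissection labels differ between the genotypes. The part of these labels in the values was not tested.

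Genes that mark microglia at rest had small positive differences. Of 22 homeostatic markers, 19 were positive, with a median of 0.16 (0.17 in Entire libraries only). Above all Tmem106b WT Grn HET libraries lay 4 of them (18.2%, against 3.15% of all genes). Txnip, an inhibitor of thioredoxin, was at 536, 575 and 602 CPM in Tmem106b HET Grn HET and 398, 231, 405, 419 and 243 CPM in Tmem106b WT Grn HET libraries (0.44, SE 0.33). Siglech, a sialic acid receptor, was at 2101, 1838 and 1985 CPM in Tmem106b HET Grn HET and 1523, 977, 1589, 1501 and 1026 CPM in Tmem106b WT Grn HET libraries (0.29, SE 0.35). For these 2 genes each double heterozygous library lay above every Tmem106b WT Grn HET library, Hemi or Entire. P2ry12, the purine receptor that directs microglial processes, was at 4151, 3560.3 and 4184 CPM in Tmem106b HET Grn HET and 3364, 1938, 3508, 3417 and 2010.4 CPM in Tmem106b WT Grn HET libraries, where the gap to the Entire libraries was small. Tmem119, a microglial membrane protein, was at 7077, 6263 and 6274 CPM in Tmem106b HET Grn HET and 6691, 2869, 6195, 6042 and 3859 CPM in Tmem106b WT Grn HET libraries and overlapped.

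The disease-associated signature of microglia, which Trem2 signalling induces around damage, differed in direction between members and with the libraries used. Of 31 members, 14 were positive, with a median of -0.06, near that of all genes. In Entire libraries only, 22 were positive, with a median of 0.17, and with both Hemi libraries of Tmem106b WT Grn HET left out the median was 0.41. Above all Tmem106b WT Grn HET libraries lay 5 members (16.1%, against 3.15% of all genes) and below them 1, Gpnmb. Gpnmb and Lgals3 were lower in the double heterozygotes and are described below with the genes altered by Grn loss. Trem2, the lipid-sensing receptor, was at 2245, 2146 and 2499.7 CPM in Tmem106b HET Grn HET and 1969, 1323, 1992, 1871 and 1237 CPM in Tmem106b WT Grn HET libraries. Tyrobp, its signalling adaptor, was at 1588, 1463 and 1774 CPM in Tmem106b HET Grn HET and 1237, 1086, 1319, 1326 and 921 CPM in Tmem106b WT Grn HET libraries. Both were slightly higher in each double heterozygous library, unlike Gpnmb and Lgals3.

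Lysosomal genes are the closest to the function of both altered genes. Of 50 lysosomal enzymes and membrane proteins, 30 were positive, with a median of 0.09 (0.20 in Entire libraries only). Above all Tmem106b WT Grn HET libraries lay 8 of them (16.0%, against 3.15% of all genes). Among these were the cysteine proteases Ctsl, Ctsh, Ctss and Ctsf. Ctss was at 15076, 12243 and 15121 CPM in Tmem106b HET Grn HET and 11279.9, 7813, 11809.6, 11258 and 7326 CPM in Tmem106b WT Grn HET libraries. Tmem175, a lysosomal potassium and proton channel, was at 115, 102 and 119 CPM in Tmem106b HET Grn HET and 86.6, 49.6, 96.9, 75.8 and 80.4 CPM in Tmem106b WT Grn HET libraries (0.38, SE 0.24). Gaa, the acid glucosidase that degrades glycogen, was the member below all Tmem106b WT Grn HET libraries. It was at 408, 353 and 404 CPM in the double heterozygotes, against 485, 1216, 473, 451 and 734 CPM in those libraries. The differences of Gaa and of the cathepsins were thus small beside the spread that the Hemi libraries add. Smpd1, the acid sphingomyelinase, had a log2 fold change of -0.56 (SE 0.23), Arsa, arylsulfatase A, one of 0.31 (SE 0.21) and Mcoln1, the main lysosomal calcium channel, one of 0.19 (SE 0.14), all with overlap.

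Subunits of the V-type ATPase, the pump that acidifies lysosomes and with which TMEM106B is known to interact, had 7 of 18 positive and a median of -0.08 (0.16 in Entire libraries only, the opposite sign). Atp6v0d1, of the membrane sector, was at 75.3, 65.6 and 71.5 CPM in Tmem106b HET Grn HET and 78.3, 96.4, 92.5, 84.9 and 106 CPM in Tmem106b WT Grn HET libraries (-0.42, SE 0.18, adjusted p = 0.697, edgeR). Its values separate the genotypes by a narrow margin. Atp6ap1, the accessory subunit that binds TMEM106B, was at 999, 864 and 1012 CPM in Tmem106b HET Grn HET and 835, 624, 832, 814 and 735 CPM in Tmem106b WT Grn HET libraries, the other way round. Of 25 autophagy and TFEB family genes, 13 were positive, with a median of 0.04. Ulk1, the kinase that starts autophagy, had a log2 fold change of -0.73 (SE 0.34) and the autophagy receptor Optn one of 0.71 (SE 0.37). Of 22 genes for progranulin and its receptors, partners and processing enzymes, 12 were positive, with a median of 0.05. Grn itself is among the 12. Igf2r, the mannose 6-phosphate receptor that sorts lysosomal enzymes, had the lowest p at 0.0013 (adjusted p = 0.558, edgeR), with 0.762, 0.0191 and 0.632 CPM in Tmem106b HET Grn HET and 4.83, 1.06, 2.42, 4.94 and 24.0 CPM in Tmem106b WT Grn HET libraries (-3.90, SE 1.04). It was low in all 8 libraries, and replicate 5 of Tmem106b WT Grn HET stood far above the rest.

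Lipid genes had mostly negative log2 fold changes. Of 22 lipid efflux and storage genes, 5 were positive, with a median of -0.29 (-0.19 in Entire libraries only). With both Hemi libraries of Tmem106b WT Grn HET left out, the median was -0.08, nearer to that of all genes (0.0052). Apoc1, an apolipoprotein, was at 0.341, 0 and 0.469 CPM in Tmem106b HET Grn HET and 0.792, 6.65, 2.47, 2.62 and 3.84 CPM in Tmem106b WT Grn HET libraries (-2.87, SE 1.16, adjusted p = 0.677, edgeR). Of 22 genes of cholesterol synthesis, 6 were positive, with a median of -0.16 (-0.15 in Entire libraries only, -0.09 without both Hemi libraries). Sqle, squalene epoxidase, was at 14.9, 1.41 and 0.856 CPM in Tmem106b HET Grn HET and 12, 55.3, 14.3, 22.6 and 69.2 CPM in Tmem106b WT Grn HET libraries (-1.98, SE 0.79, adjusted p = 0.672, edgeR), so replicate 1 of the double heterozygotes lay within the range of the other group and replicates 2 and 3 below it. Without that replicate 1 its adjusted p was 0.0365. Of 19 TGF-beta pathway genes, 4 were positive, with a median of -0.33 (-0.49 in Entire libraries only, -0.41 without both Hemi libraries). Ltbp3, which stores latent TGF-beta in the matrix, was at 5.51, 9.83 and 8.19 CPM in Tmem106b HET Grn HET and 10.6, 54.4, 21.2, 25.5 and 112 CPM in Tmem106b WT Grn HET libraries (-1.73, SE 0.56, adjusted p = 0.643, edgeR). The highest values of Ltbp3 were again those of the Hemi libraries.

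The remaining lists held genes of immunity, energy metabolism, division and disease risk. Interferon response genes had 17 of 27 positive and a median of 0.03, antigen presentation genes 11 of 18 and 0.07, and complement genes 8 of 16 and -0.05. Irf9, the transducer of type I interferon signals, was at 97.2, 98.3 and 95.6 CPM in Tmem106b HET Grn HET and 88.4, 31.6, 61.0, 84.0 and 62.0 CPM in Tmem106b WT Grn HET libraries (0.29, SE 0.36). C1qb, a chain of the initiator of the classical complement pathway, was at 13743, 12516 and 14708 CPM in Tmem106b HET Grn HET and 11754, 7729, 12279, 10921 and 8053 CPM in Tmem106b WT Grn HET libraries. Both were somewhat higher in each double heterozygous library. Oxidative phosphorylation genes had 10 of 26 positive (median -0.04) and cell cycle genes 10 of 24 (median -0.19). Risk genes of frontotemporal dementia and amyotrophic lateral sclerosis, Grn among them, had 11 of 21 positive (median 0.00069). Above all Tmem106b WT Grn HET libraries lay 4 interferon response genes (14.8%), 4 antigen presentation genes (22.2%), 3 risk genes (14.3%) and 1 complement gene (6.25%). No oxidative phosphorylation or cell cycle gene did, and the share of all genes was 3.15%. Shares above that of all genes were thus not limited to the lists with high medians. In Entire libraries only the medians were higher: 0.27 for interferon response (22 of 27 positive), 0.27 for antigen presentation (15 of 18), 0.04 for complement, 0.20 for oxidative phosphorylation, -0.02 for cell cycle and 0.14 for risk genes. With both Hemi libraries of Tmem106b WT Grn HET left out, the medians were 0.50 for interferon response, 0.34 for antigen presentation and 0.46 for cell cycle genes. From the risk genes, the RNA-binding protein Hnrnpa2b1 was at 339, 365 and 358 CPM in Tmem106b HET Grn HET and 305, 295, 293, 281 and 246 CPM in Tmem106b WT Grn HET libraries (0.25, SE 0.16), higher in each double heterozygous library.

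**Figure D4:**
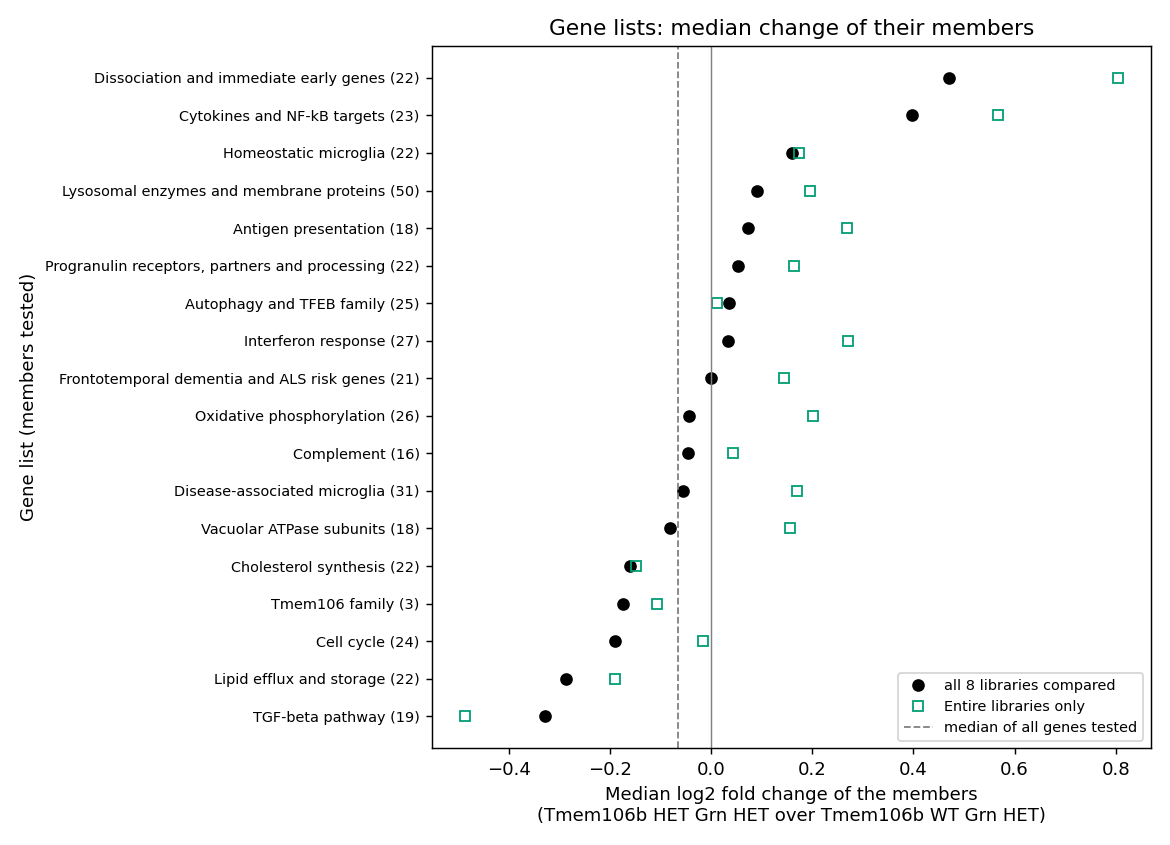
Median log2 fold change of the members of each gene list, Tmem106b HET Grn HET over Tmem106b WT Grn HET, from all libraries (filled) and from Entire libraries only (open), with the number of members tested in brackets and the median of all genes as a dashed line. Immediate early and cytokine genes have the highest medians (0.47 and 0.40), and TGF-beta pathway genes the lowest (-0.33).

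The genes that complete Grn loss altered in the same series give a separate view of whether Grn heterozygotes differ by Tmem106b genotype. Within Tmem106b WT microglia, 123 genes (0.576%) passed between Grn KO and Grn WT, 91 higher and 32 lower in Grn KO. These libraries are not part of the Grn HET contrast, though they share its model. Of the 91 genes higher in Grn KO, 20 had a positive log2 fold change in the Grn HET contrast, with a median of -0.29. In Entire libraries only, 36 of the 91 were positive, with a median of -0.20, and with only the 2 Hemi libraries of Tmem106b WT Grn HET left out the median was -0.07, where all genes had a median of 0.0052. All 3 Tmem106b HET Grn HET libraries lay below all 5 Tmem106b WT Grn HET libraries for 11 of them (12.1%, against 2.88% of all genes) and above them for 0. Of the 32 genes lower in Grn KO, 16 were positive, with a median of 0.02. Grn itself is among the 32 and, at 0.82, among the 16. None of the 123 passed in the Grn HET contrast.

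Gpnmb, a transmembrane glycoprotein of endolysosomes that is widely used as a marker of progranulin loss in microglia, is the member of the disease-associated list with the lowest p. Its promoter window from RefSeq (GRCm38.p6, chr6:49036268-49036567, plus strand) is shown because its level separates the 2 genotypes compared here. It held neither CACGTG nor CATGTG.
Gpnmb promoter: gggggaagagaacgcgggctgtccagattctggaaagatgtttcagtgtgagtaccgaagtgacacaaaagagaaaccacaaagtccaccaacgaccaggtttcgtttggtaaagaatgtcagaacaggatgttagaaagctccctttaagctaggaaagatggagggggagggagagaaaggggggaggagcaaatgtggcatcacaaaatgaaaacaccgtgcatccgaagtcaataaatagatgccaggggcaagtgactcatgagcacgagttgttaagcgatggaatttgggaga

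Gpnmb was at 14.1, 1.71 and 16.2 CPM in the 3 Tmem106b HET Grn HET libraries, against 365, 360.2, 44.6, 60.6 and 26.4 CPM in the 5 Tmem106b WT Grn HET libraries. The 3 double heterozygous libraries were the lowest, and replicates 1 and 2 of the other group, 1 Entire and 1 Hemi, stood above its other 3. The log2 fold change was -4.31 (SE 1.19, 95% interval -6.80 to -1.82, adjusted p = 0.558, edgeR) and -4.80 in Entire libraries only, and the adjusted p by DESeq2 was 7.2e-05. For scale, Gpnmb ranged from 1.43 to 28.1 CPM in Tmem106b HET Grn WT and 1.75 to 8.90 CPM in Tmem106b WT Grn WT libraries. In Tmem106b KO Grn WT libraries it ranged from 33.6 to 190.3 CPM, overlapping the Tmem106b WT Grn HET libraries. With Grn deleted it ranged from 2387 to 13189 CPM in Tmem106b HET and 8314 to 13934 CPM in Tmem106b WT libraries. Each double heterozygous library thus lay within the range of Tmem106b HET Grn WT, and each Tmem106b WT Grn HET library above all Tmem106b WT Grn WT libraries and far below Grn KO.

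Mcoln3, a lysosomal cation channel of the mucolipin family, was chosen for description after its values were seen, as were the other genes of this account without a fold change. It was at 0.180, 0 and 0.102 CPM in Tmem106b HET Grn HET and 2.47, 3.31, 2.14, 4.53 and 2.82 CPM in Tmem106b WT Grn HET libraries. It had no count in Tmem106b WT Grn WT libraries and ranged from 0 to 4.93 CPM in Tmem106b KO Grn WT, from 0 to 0.898 CPM in Tmem106b HET Grn WT, and from 15.3 to 184 CPM in Tmem106b HET Grn KO and 116 to 202 CPM in Tmem106b WT Grn KO. All 5 Tmem106b WT Grn HET libraries held a low level of Mcoln3 and the double heterozygotes almost none. Mamdc2, a secreted proteoglycan-type protein, was at 0.401, 0 and 0.0815 CPM in Tmem106b HET Grn HET and 1.89, 2.19, 2.70, 1.56 and 5.32 CPM in Tmem106b WT Grn HET libraries. Lgals3, a galectin that binds damaged lysosomes, was at 40.6, 31.1 and 50.4 CPM in Tmem106b HET Grn HET and 70.2, 108, 92.8, 42.6 and 79.3 CPM in Tmem106b WT Grn HET libraries (-1.07, SE 0.43, adjusted p = 0.672, edgeR), with 1 library of the second group inside the range of the first. Other members without overlap are known from neurons: the calcium channel subunit Cacnb3, the calcium-binding proteins Necab2 and Necab3, the potassium channel Kcnma1 and the nicotinic receptor subunit Chrna3, which is also on the medial habenula list. Necab2 was at 0.501, 0.591 and 2.63 CPM in Tmem106b HET Grn HET and 17.5, 40.6, 5.81, 11.1 and 15.9 CPM in Tmem106b WT Grn HET libraries. They stand beside the lower medial habenula sum given above, whose part in the count of 11 was not tested. Pianp and the predicted genes Gm16835 and Gm5741 complete the 11. Apoe, Lyz2 and Fabp5, which also passed in Grn KO, overlapped; Apoe was at 8062, 5835 and 9980.4 CPM in Tmem106b HET Grn HET and 9353, 12044, 7654, 6680.1 and 10795 CPM in Tmem106b WT Grn HET libraries. From the genes lower in Grn KO, the selectin ligand Selplg, St3gal5 and the predicted gene Gm33858 lay above all Tmem106b WT Grn HET libraries. St3gal5, a ganglioside synthase, was at 277, 281 and 269.7 CPM in Tmem106b HET Grn HET libraries. In Tmem106b WT Grn HET libraries it was at 241, 203, 241, 249 and 214 CPM. It reached 296 CPM in Tmem106b WT Grn WT libraries.

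**Figure D5:**
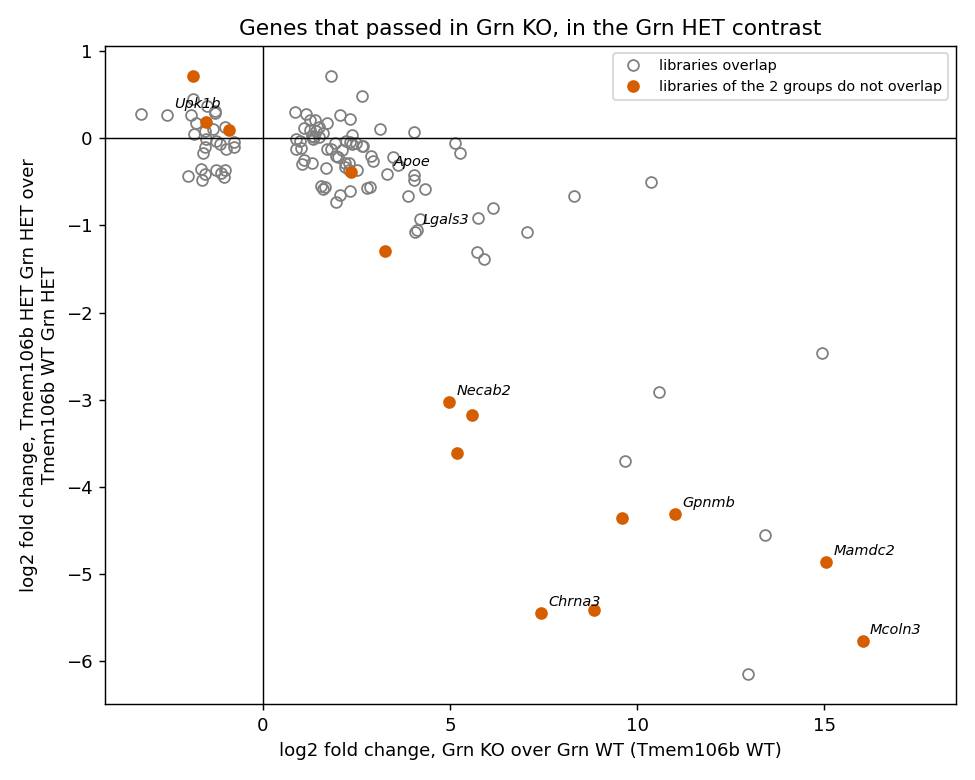
The 123 genes that passed between Grn KO and Grn WT within Tmem106b WT, without Grn itself, which is not plotted. The x axis gives their log2 fold change in that comparison. The y axis gives their log2 fold change between Tmem106b HET Grn HET and Tmem106b WT Grn HET. Filled points mark genes where the libraries of the Grn HET groups do not overlap. Of the 91 genes on the right, 20 lie above 0 on the y axis (36 in Entire libraries only, not plotted), with Gpnmb, Mamdc2 and Mcoln3 at the lower right.

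Whether lowering Tmem106b did the same in other Grn genotypes was tested as a difference of effects, over libraries that the contrasts do not share. The effect in Grn HET differed from that in Grn WT for 0 genes by edgeR (smallest adjusted p 0.833; 1196 genes, 5.6%, at an unadjusted p under 0.05), 0 by limma-voom and 402 by DESeq2. It differed from that in Grn KO for 0 genes by edgeR (smallest adjusted p 0.499; 1531 genes, 7.16%, at an unadjusted p under 0.05), 0 by limma-voom and 360 by DESeq2. Leading the difference from Grn KO was Lrrn2, with a log2 fold change of -3.49 in Grn HET and 1.26 in Grn KO (difference -4.75, adjusted p = 0.499, edgeR). Arhgef17, Spint2, Zfp423 and Phf24 follow it, each negative in Grn HET and positive in Grn KO. Leading the difference from Grn WT was Coq8b, at 0.94 in Grn HET and -0.51 in Grn WT (difference 1.45, adjusted p = 0.833, edgeR). Sostdc1, a secreted antagonist of BMP and Wnt signals, and Ace, the angiotensin-converting enzyme, follow, both of them genes of choroid plexus epithelium. Sostdc1 was at 0.180, 0.629 and 0.733 CPM in Tmem106b HET Grn HET and 2.88, 68.0, 10.3, 115 and 381 CPM in Tmem106b WT Grn HET libraries, in the same order as the choroid plexus sums within the 5 Tmem106b WT Grn HET libraries. For Tmem106b itself the effect in Grn HET minus that in Grn WT was 0.0019, and minus that in Grn KO 0.10 (adjusted p = 1 and 0.951, edgeR).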

How the data were processed

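Poly(A) RNA of mouse microglia was extracted on Qiagen columns, and libraries were made with SMART-Seq and Nextera XT reagents, per the labels' protocols. Reads were aligned with GSNAP to GRCm38, per the submitters' processing notes. The deposited files hold, per the file headers, raw exonic read counts and an RPKM value per Ensembl gene. RPKM values deposited by the authors were not tested. Counter, strand setting, treatment of shared reads and filters are not given in the sources used here, so overlapping genes and paralogs may share reads. Of 52636 genes, 52489 matched GENCODE M21 of the same assembly by identifier.

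The counts were tested with edgeR 4.0.16 in R 4.3.3 over all 26 libraries in 7 genotype groups, with sex and dissection as covariates, edgeR's expression filter (21371 genes kept), TMM scaling and a robust two-sided quasi-likelihood F-test. P-values were adjusted by Benjamini-Hochberg over all genes, and a gene passed under 0.05. Across genes 3 comparisons were made: the contrast and its 2 differences from other Grn genotypes. CPM values are TMM-scaled. Exact permutation tests used log2(CPM + 1), a pseudocount of 1. The fit was also run on simulated counts with known changes planted in well-counted genes. That simulation gave all genes the same spread and held no effect of sex or dissection, so it does not cover low or variable genes. Alternatives were DESeq2 1.42.0, limma-voom (limma 3.58.1), other scaling, filters, covariates and libraries, and leaving out each library. Replicate numbers only name libraries and pair none.

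Named genes are the targets, their family and neighbours, the 12 higher and 12 lower genes of smallest p with at least 0.5 log2 fold and 5 CPM (predicted genes, Y-linked genes and Xist aside), the 5 leading each difference, and leading members of the lists. The members and lists were chosen with earlier results of these data known.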

Additional observations from a re-analysis of the deposited data

Results flagged for a closer look

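In 14 of 101 values examined, 1 library of Tmem106b WT Grn HET lay far from the other 4 of its group by Dixon's criterion. Chance alone marks about 1 in 20 such groups. All 14 came from the 2 Hemi libraries, 10 from replicate 5 and 4 from replicate 2. The group of 3 Tmem106b HET Grn HET libraries was too small to examine in this way.

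In replicate 5, the choroid plexus and ependymal sum was 24770 CPM, against 4493 CPM in the next highest library. Genes that stood high in the same library were Spint2 at 324 CPM, the angiotensin-converting enzyme Ace at 291 CPM, the lysosomal sorting receptor Igf2r at 24.0 CPM, the acid sphingomyelinase Smpd1 at 283 CPM, the complement inhibitors Cd59a at 76.9 CPM and Cd55 at 19.8 CPM, and the growth factor Tgfb2 at 46.2 CPM. Standing low in replicate 5 were the ribosomal RNA methyltransferase Bud23 at 41.1 CPM and the lysosomal calcium channel Mcoln1 at 122 CPM.

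In replicate 2, the medial habenula sum was 382 CPM, against 80.6 CPM in the next highest library of its group. The extracellular protease Adamts7 at 10.8 CPM and the autophagy receptor Optn at 49.5 CPM were high there, and the cell cycle sum of 179 CPM was low.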

How the results depend on the processing

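Of 20 alternative settings, those that moved the number of genes past the threshold from 0 were DESeq2 (515 genes) and leaving out single libraries (0 to 8 genes, the 8 without replicate 1 of Tmem106b HET Grn HET). For the difference from the Tmem106b HET effect in Grn WT and the difference from the Tmem106b HET effect in Grn KO, DESeq2 gave 402 and 360 genes and all other settings that were run 0. Tmem106b kept a negative log2 fold change throughout, from -0.55 to -0.17. Grn turned to -0.18 with the 8 libraries alone, sex and dissection. Single members of lists that changed sign were Adamts7 (1.79 with the 8 libraries alone and both covariates, 0.0721 in Entire libraries only, 0.51 without both Hemi libraries), Gpr34 (-0.0025 with dissection only, -0.0326 with marker sums), Rhob (0.0799 without covariates, 0.0067 with sex only, 0.0620 with the 8 libraries and no covariates, 0.0528 with marker sums), Uqcrc1 (-0.0015 with sex only) and Tgfb2 (0.87 with marker sums). The causes were not tested. Leaving out both Hemi libraries was chosen after seeing the data. Of 680 list medians over the settings, 542 moved by less than 1 SD of the replicates. With 3 and 5 libraries, and both Hemi libraries on one side, differences of low genes are set by few libraries.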

Other observations

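Replicate 1 of Tmem106b HET Grn HET stood apart from the other 2 libraries of its genotype in a small set of genes, which were chosen after their values were seen. Rrp12, a factor of ribosome assembly, was at 24.2, 2.57 and 2.83 CPM in replicates 1 to 3 of Tmem106b HET Grn HET, and at 26.9, 28.2, 34.4, 15.5 and 25.4 CPM in Tmem106b WT Grn HET libraries. March6, a ubiquitin ligase of the endoplasmic reticulum that degrades squalene epoxidase, was at 19.4, 1.05 and 5.77 CPM in Tmem106b HET Grn HET and 16.3, 31.1, 20.9, 15.9 and 23.8 CPM in Tmem106b WT Grn HET libraries. Squalene epoxidase itself, encoded by Sqle, was also highest in replicate 1 within that genotype. Wdpcp, a planar cell polarity effector, was at 11.8, 1.92 and 1.53 CPM in Tmem106b HET Grn HET and 10.5, 9.81, 15.6, 8.79 and 20.2 CPM in Tmem106b WT Grn HET libraries. In each of these genes replicate 1 lay near the levels with wild type Tmem106b and replicates 2 and 3 below all of them. Without replicate 1, the adjusted p was 0.0280 for Wdpcp and 0.0365 for the others (edgeR).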
